A study of Mus musculus with 6 samples.

Results

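The aminoacyl-tRNA synthetases, the enzymes that attach each amino acid to its transfer RNA, were followed at the mRNA level in mouse CD8+ T cells treated with itaconate. They were taken by gene symbol from a given list of 36 enzymes, 20 that serve the cytosol and 16 that serve mitochondria, out of 55487 genes in each table. The symbol Mars1 of that list is written Mars in the files. The cells came from C57BL/6 mice. Of the 6 RNA-seq libraries, 3 came from cells given itaconate at 5 mM over 48 h and 3 from control cells given NaCl over 48 h. Itaconate is a dicarboxylic acid that activated macrophages make. The labels give no age, no activating stimulus and do not say whether replicates were separate animals or cultures. The spread behind each p-value may therefore be technical.

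Each synthetase recognises its amino acid and its transfer RNA and joins them at the cost of ATP, and the ribosome then uses the charged product. Cytosolic and mitochondrial translation mostly use separate nuclear genes, the mitochondrial ones carrying the suffix 2. Gars and Kars, which charge glycine and lysine, supply both compartments from a single gene, and Qars, which charges glutamine, has no mitochondrial counterpart because mitochondria make glutaminyl-tRNA from a glutamate-charged precursor. Several cytosolic enzymes sit together in a multisynthetase complex, and the others are free. When charging falls short, uncharged tRNA activates the kinase GCN2, encoded by Eif2ak4, and the transcription factor ATF4 then raises amino acid transporters, biosynthetic enzymes and many cytosolic synthetases.

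Expected counts per library summed to between 18280217 and 31643408. Control replicate 1 stood apart in how far effective length fell short of gene length, which reflects fragment length, at 258.6 bases against 229.2 to 239.1 in the other 5 libraries. It also had the largest share of counts from the mitochondrial genome, 1.94% against 1.252% to 1.55%. Of 9 marker genes of CD8 T cells, all were detected, with summed levels of 7222 to 7734 CPM in itaconate libraries and 6397 to 7086 CPM in control libraries, and Cd8a and Gzmb were called higher. CPM are counts scaled to library size with TMM factors (the usual CPM unit). Summed marker levels were 1.998 to 5.79 CPM with itaconate and 2.45 to 4.70 CPM in control for Cd4, 9.60 to 19.99 CPM with itaconate and 11.1 to 16.1 CPM in control for 4 B cell genes, and 0.555 to 2.66 CPM with itaconate and 0.446 to 1.02 CPM in control for 5 myeloid genes. Genes of dendritic cells summed to 0 to 0.858 CPM with itaconate and 0.242 to 0.857 CPM in control, with Siglech at 0 in all libraries. Natural killer genes summed to 0 to 0.858 CPM with itaconate and 0.0967 to 0.508 CPM in control, and erythroid genes to 0.129 to 3.995 CPM with itaconate and 0.668 to 1.26 CPM in control. Genes of epithelial or stromal cells summed to 4.33 to 5.28 CPM with itaconate and 2.89 to 3.77 CPM in control. None of the genes of other cell types was called, and the part of other cells in the results was not tested.

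Most synthetase mRNAs differed little between itaconate-treated and control cells. By edgeR's quasi-likelihood test with Benjamini-Hochberg adjustment over 12350 genes, 3 of the 36 passed an adjusted p of 0.05, a share of 8.33%, where 12.0% of all tested genes did. Gars and Sars, the glycine and serine enzymes of the cytosol, rose (background for higher genes 6.68%), and Yars2, the tyrosine enzyme of mitochondria, fell (background for lower genes 5.36%). All 36 genes passed the filter on low counts, with 164 to 20609 counts per library. In these bulk libraries, fewer cells of a type and less RNA per cell cannot be told apart. The median log2 fold change of itaconate over control was 0.022 for the 20 cytosolic enzymes and 0.040 for the 16 mitochondrial enzymes, beside 0.0059 for all tested genes. With limma on log2(TPM + 1) these medians were -0.0464 for cytosolic and -0.0229 for mitochondrial enzymes, beside -0.0496 for all genes in that fit. For 12 of the 36, all itaconate libraries lay on one side of all control libraries, 10 higher and 2 lower with itaconate, a share of 33.3% where 31.2% of all tested genes showed this (16.8% higher and 14.4% lower).

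**Figure D1:**
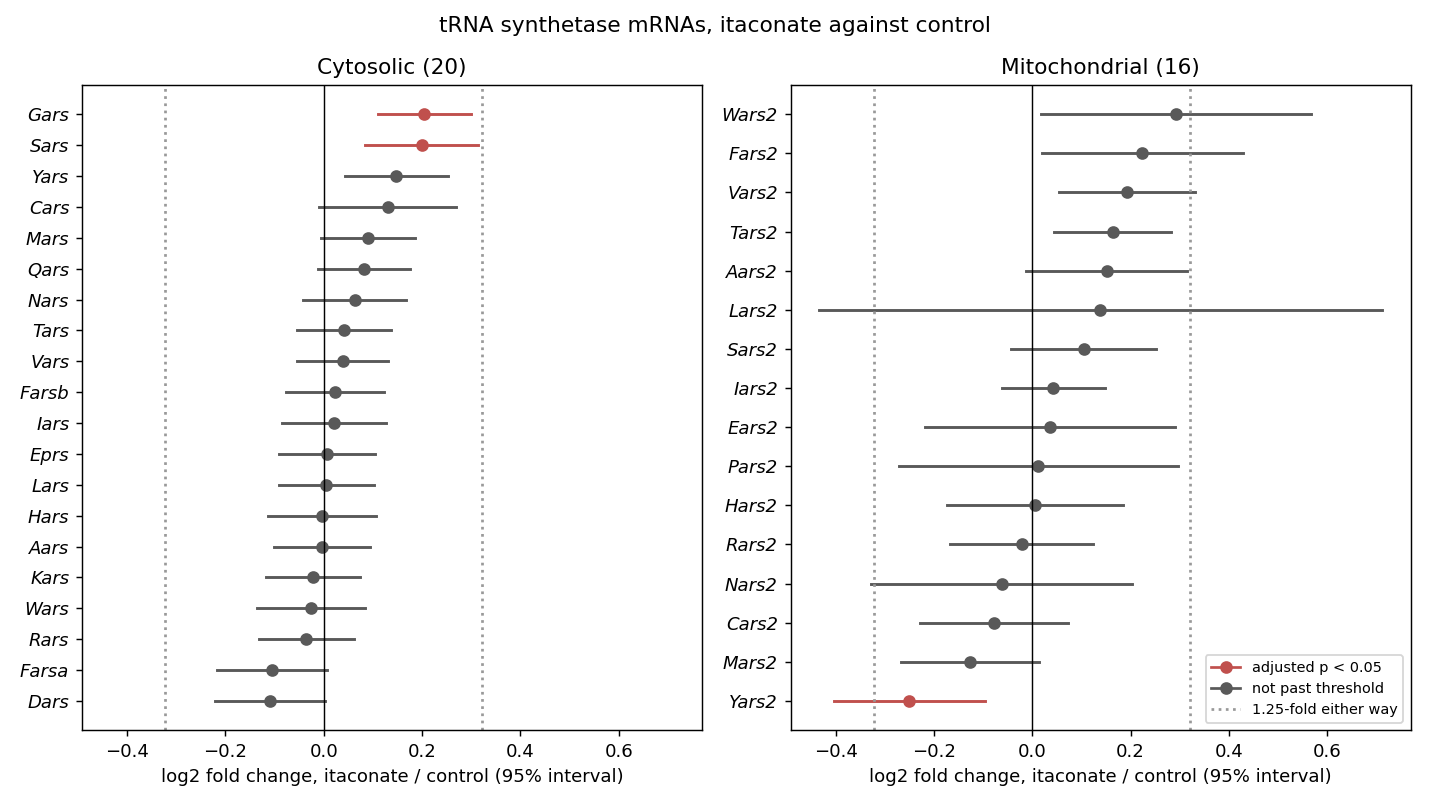
Fitted log2 fold change of itaconate over control (x axis) for the 20 cytosolic (left) and 16 mitochondrial (right) synthetases, with 95% intervals from 3 against 3 libraries; red marks an adjusted p under 0.05 and dotted lines mark 0.32 on either side of 0. All 20 cytosolic intervals lie inside the dotted lines, and 10 of 16 mitochondrial intervals do.

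The cytosolic set was bounded tightly. For all 20 enzymes the 95% interval of the log2 fold change lay within 0.32 of 0 in either direction, the outermost limits being -0.22 for Dars and 0.31 for Sars. Among the 1202 tested genes within the CPM range of these enzymes, 1031 had such an interval and 16.6% were called. The median absolute log2 fold change was 0.040 for the cytosolic enzymes, beside 0.077 for those 1202 genes. The mitochondrial enzymes had fewer counts and wider intervals, with 10 of 16 inside the same limits and a median absolute log2 fold change of 0.12. Of the 6617 tested genes within their CPM range, 4193 lay inside the limits and the median absolute log2 fold change was 0.11. These intervals are per gene and are not adjusted for the number of genes.

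Gars had 638.6, 661.2 and 640.6 CPM in itaconate replicates 1, 2 and 3, against 545.6, 567.5 and 570.9 CPM in control replicates 1, 2 and 3. Every itaconate library lay above every control library. The mean was 646.8 ± 12.5 CPM with itaconate and 561.3 ± 13.7 CPM in control (SD, n = 3 each), 15.2% higher with itaconate, and the log2 fold change was 0.20 ± 0.044 (SE; edgeR adjusted p 0.00814). The call held without any 1 of the 6 libraries, with adjusted p-values from 0.0151 to 0.0456, but not with limma on log2(TPM + 1) (0.136). Gars (ENSMUSG00000029777) lies on chromosome 6 at 55038007 to 55079500, plus strand, in the GRCm38 mouse genome (GENCODE M21), where no other annotated gene overlaps it.

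Sars, which charges serine and also the selenocysteine tRNA, had 409.6, 449.2 and 418.7 CPM in itaconate replicates 1, 2 and 3, against 348.2, 392.5 and 372.2 CPM in the control replicates in the same order. The groups did not overlap, and control replicate 1 was the lowest library. The mean was 425.8 ± 20.8 CPM with itaconate and 371.0 ± 22.2 CPM in control (SD, n = 3 each), with a log2 fold change of 0.20 ± 0.054 (SE; edgeR adjusted p 0.0268). Sars did not pass when itaconate replicate 2 (adjusted p 0.124) or 3 (0.0722), or control replicate 1 (0.0922) or 3 (0.0545), was dropped, nor with effective length as an offset (0.0972) or limma on log2(TPM + 1) (0.235). Its mitochondrial counterpart Sars2 had 37.7, 39.0 and 39.0 CPM with itaconate, against 37.9, 33.2 and 36.4 CPM in control, and these ranges overlapped (0.10 ± 0.069, edgeR adjusted p 0.366). Sars (ENSMUSG00000068739) lies on chromosome 3 at 108424865 to 108445209, minus strand, and overlaps the small predicted gene Gm22942 on the other strand.

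The tyrosine enzymes of the cytosol and of mitochondria had fold changes of opposite sign. Yars2 had 45.0, 38.9 and 46.2 CPM in itaconate replicates 1, 2 and 3, against 51.1, 54.1 and 49.9 CPM in the control replicates. All itaconate libraries were below all control libraries, and itaconate replicate 2 was the lowest. Yars2 fell by 15.9%, to 43.4 ± 3.90 CPM with itaconate against 51.7 ± 2.19 CPM in control (SD, n = 3 each), with a log2 fold change of -0.25 ± 0.072 (SE; edgeR adjusted p 0.036). Without control replicate 1 (adjusted p 0.0548), control replicate 2 (0.137) or itaconate replicate 2 (0.153) it did not pass, nor with effective length as an offset (0.0799) or limma on log2(TPM + 1) (0.0806). Yars, the cytosolic enzyme, had 245.5, 251.7 and 243.2 CPM with itaconate, against 208.7, 230.7 and 229.0 CPM in control. Those groups did not overlap either, but Yars missed the threshold (0.15 ± 0.049, edgeR adjusted p 0.065). Yars2 (ENSMUSG00000022792) lies on chromosome 16 at 16302965 to 16309640, plus strand.

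**Figure D2:**
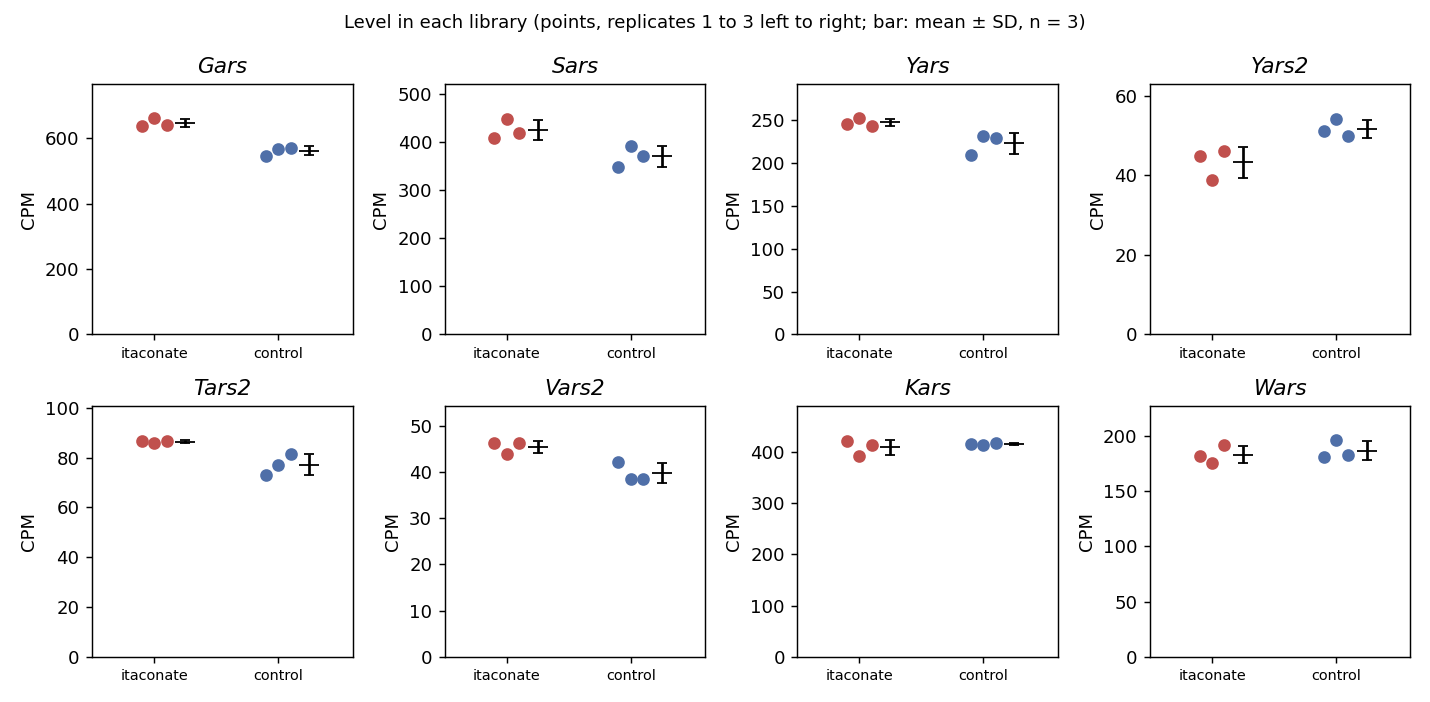
CPM (y axis, from 0) of 8 synthetases in each itaconate (left, red) and control (right, blue) library, with mean ± SD of 3 libraries in black. Gars, Sars, Yars, Tars2 and Vars2 are higher in every itaconate library than in any control library, Yars2 is lower in every one, and Kars and Wars overlap between groups.

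Within the multisynthetase complex, 0 of 8 enzymes were called by edgeR, 0 by DESeq2 and 0 at an unadjusted edgeR p under 0.05. Among 12350 tested genes, 12.0% were called by edgeR and 3271 had an unadjusted edgeR p under 0.05. The median log2 fold change of the 8 enzymes was 0.0057, from -0.11 for Dars to 0.09 for Mars. Dars, the aspartate enzyme, had 173.3, 173.6 and 187.1 CPM in itaconate replicates 1, 2 and 3, against 196.4, 180.7 and 198.8 CPM in control, and the groups overlapped (-0.11 ± 0.052, edgeR adjusted p 0.202). Eprs, a fused enzyme for glutamate and proline, and Lars, the leucine enzyme, were at 0.0062 ± 0.046 and 0.0052 ± 0.045. Kars, the lysine enzyme of both compartments, had 422.1, 393.0 and 413.4 CPM with itaconate, against 416.5, 414.4 and 416.9 CPM in control, with a 95% interval of -0.12 to 0.07 (edgeR adjusted p 0.804). The scaffold genes of the complex, Aimp1, Aimp2 and Eef1e1, gave 0 calls of 3 by edgeR or DESeq2, and 1 at an unadjusted edgeR p under 0.05. Aimp2 had 74.6, 75.7 and 74.6 CPM with itaconate, against 85.2, 83.1 and 79.5 CPM in control, without overlap (-0.14 ± 0.053, edgeR adjusted p 0.104).

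Of the 12 free cytosolic enzymes, 2 rose, 0 fell and 10 did not pass, and their median log2 fold change was 0.040. That share, 16.7%, stands beside 16.6% called among tested genes in the cytosolic CPM range. The difference between free enzymes and those of the complex was not tested. Farsa, the catalytic subunit of the phenylalanine enzyme, was at -0.10 ± 0.052 (edgeR adjusted p 0.218), and Farsb, its other subunit, at 0.023 ± 0.047. Cars, the cysteine enzyme, had the widest spread within groups of the cytosolic set, a coefficient of variation of 5.18% in itaconate and 9.17% in control libraries, and was at 0.13 ± 0.065 (edgeR adjusted p 0.222). Wars, the tryptophan enzyme, which interferon-gamma is known to induce in human cells, had 182.0, 175.5 and 191.2 CPM with itaconate, against 180.4, 196.2 and 182.2 CPM in control. Those ranges overlapped, and the 95% interval of its log2 fold change ran from -0.14 to 0.084 (edgeR adjusted p 0.804). By catalytic fold, 0 of the 9 class I enzymes and 2 of the 10 class II enzymes were called by edgeR, where 12.0% of all tested genes were, Eprs holding both folds. The difference between these short lists was not tested. Of the 9 class I enzymes 1, Yars, had an unadjusted edgeR p under 0.05, beside 3271 of 12350 tested genes. Of these enzymes 0 were called by DESeq2.

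Of the 12 cytosolic enzymes listed as known responders to ATF4, 2 rose and 0 fell, with a median log2 fold change of 0.052. That share, 16.7%, stands beside 16.6% called among tested genes in the cytosolic CPM range and 12.0% among all tested genes. Of the other 8, 0 were called by edgeR or DESeq2 and 0 at an unadjusted edgeR p under 0.05, with a median of -0.013. Among 12350 tested genes, 3271 had an unadjusted edgeR p under 0.05. The first list holds Gars and Sars, and also Aars, the alanine enzyme, at -0.0038 ± 0.046 with a 95% interval of -0.10 to 0.09. Nars and Tars, the asparagine and threonine enzymes of the same list, were at 0.06 ± 0.049 and 0.041 ± 0.045.

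Among the mitochondrial enzymes 0 rose and 1 fell, by edgeR and by DESeq2. That share by edgeR, 6.25%, stands beside 12.0% of all tested genes. At an unadjusted edgeR p under 0.05 there were 5 of the 16, of which 4 had higher values, beside 3271 of 12350 tested genes. The 2 nearest to the threshold were Tars2 and Vars2. Tars2, the threonine enzyme, had 86.5, 86.0 and 86.9 CPM in itaconate replicates 1, 2 and 3, against 73.1, 76.9 and 81.4 CPM in control (0.16 ± 0.056, edgeR adjusted p 0.0692). Vars2, the valine enzyme, had 46.1, 43.9 and 46.2 CPM with itaconate, against 42.2, 38.5 and 38.5 CPM in control (0.19 ± 0.065, edgeR adjusted p 0.0677). Neither gene overlapped between groups. Vars2 passed without control replicate 1 (adjusted p 0.0456), and Tars2 passed without control replicate 3 (0.0437). The largest fold changes upward were those of the low genes Wars2 and Fars2, at 0.29 ± 0.13 and 0.22 ± 0.095, neither of which passed (edgeR adjusted p 0.16 and 0.147).

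Lars2, the leucine enzyme of mitochondria, had the largest spread among control libraries, and was singled out after its values were seen. It had 141.8, 135.9 and 134.9 CPM in itaconate replicates 1, 2 and 3, against 92.0, 158.8 and 124.7 CPM in control replicates 1, 2 and 3. The itaconate libraries fell inside the control range, and the coefficient of variation was 2.70% with itaconate and 26.7% in control. Its 95% interval, from -0.43 to 0.71, was the widest of the 36. Its log2 fold change was 0.14 with all libraries, -0.0417 without control replicate 1 and 0.334 without control replicate 2, and it passed in none of these fits (edgeR adjusted p 0.754, 0.849 and 0.135). Without Lars2, an alternative added after seeing the data, the median log2 fold change of the mitochondrial set was 0.0367.

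The summed level of each class, per transcript length, overlapped between itaconate and control libraries. Summed over the 20 cytosolic enzymes, TPM (the authors' level of transcripts scaled for length and depth) were 3382, 3135 and 3205 in itaconate replicates 1, 2 and 3, against 3252, 3349 and 3134 in the control replicates. The 16 mitochondrial enzymes summed to 372.5, 343.0 and 351.0 TPM with itaconate, against 354.8, 385.6 and 352.3 TPM in control. Itaconate replicate 1 and control replicate 2 had the highest mitochondrial sums. The cytosolic sum was 9.08, 9.14 and 9.13 times the mitochondrial sum with itaconate, against 9.17, 8.68 and 8.90 times in control, again with overlap. In CPM, which are not divided by length, the cytosolic sums were 6287, 6296 and 6360 with itaconate, against 5965, 6201 and 6113 in control, and did not overlap.

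On the TPM scale the levels of the classes were fully separated. The lowest cytosolic enzyme, Wars, averaged 90.4 TPM over the 6 libraries, and the highest mitochondrial enzyme, Tars2, averaged 52.2 TPM. Gars led the cytosolic set at 361.9 ± 6.38 TPM with itaconate and 328.4 ± 6.52 TPM in control (SD, n = 3 each), and Kars followed at 277.0 ± 18.4 TPM with itaconate and 294.4 ± 9.04 TPM in control. Gars was above Kars in every library, and these enzymes of both compartments had the highest mean TPM of the 36. Sars, Vars and Nars came next at 254.5, 252.5 and 250.6 TPM, which differ by less than their spread between libraries. At the low end stood Wars2, Mars2, Nars2, Ears2 and Pars2, at 4.06 to 7.61 TPM. Mars2 had the longest mean effective length of the 36, 11060 bases, by which TPM are divided. In CPM, which are not divided by length, Mars2 averaged 37.5 with itaconate and 41.0 in control. The group means of Wars2, Nars2, Ears2 and Pars2 ran from 9.68 to 13.05 CPM.

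Enzymes for the same amino acid made 16 pairs, with Eprs in 2 of them and Farsa taken for phenylalanine. The cytosolic member had the higher TPM in all 16, by 2.07 times for threonine to 43.8 times for asparagine, with a median of 7.33 times. The log2 CPM ratio within each library did not overlap between groups for 5 pairs. For tyrosine, Yars over Yars2 gave 2.45, 2.69 and 2.40 in itaconate replicates 1, 2 and 3, against 2.03, 2.09 and 2.20 in control. For methionine, Mars over Mars2 gave 2.87, 2.82 and 2.80 with itaconate, against 2.65, 2.54 and 2.65 in control. These 2 ratios were higher with itaconate, and those of phenylalanine, threonine and valine were lower. Each of the 5 had a two-sided exact permutation p of 0.1, the smallest that 3 against 3 libraries can give, and 0.32 after Benjamini-Hochberg adjustment over the 16 pairs, so none passed and this design could not make one pass.

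**Figure D3:**
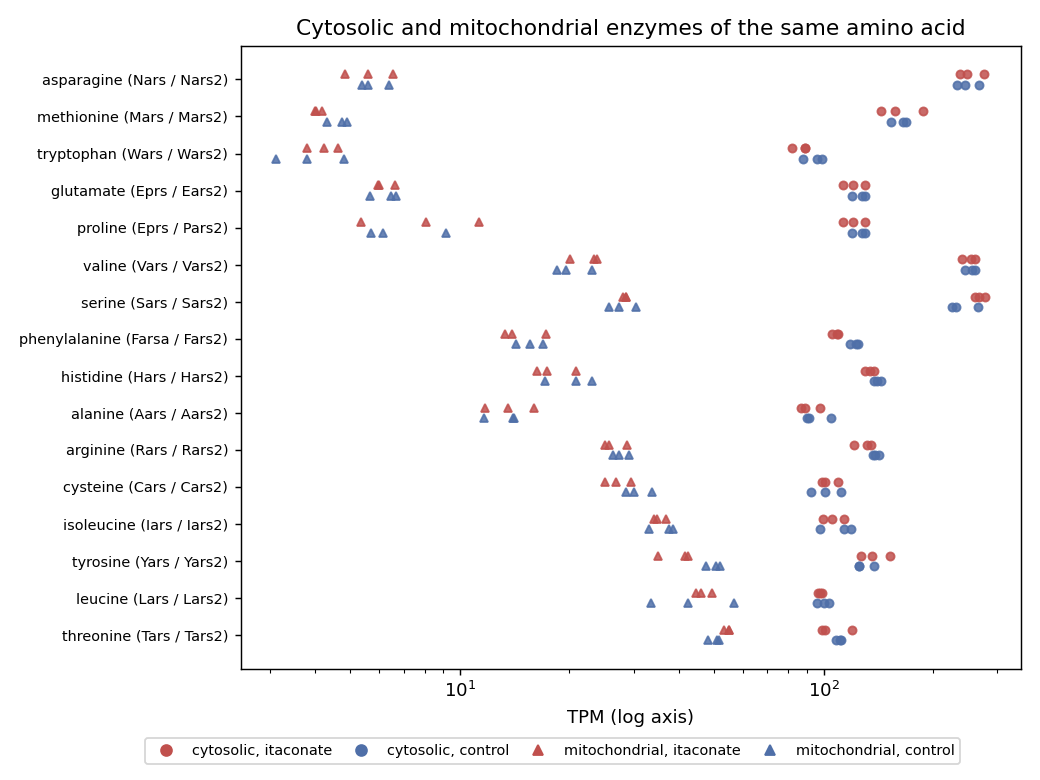
TPM on a log axis of the cytosolic (circles) and mitochondrial (triangles) enzyme of each amino acid, in the 3 itaconate (red, upper row of each pair) and 3 control (blue, lower row) libraries, ordered by the ratio of the levels. Cytosolic enzymes lie at about 90.4 TPM or more on average and mitochondrial enzymes at 52.2 TPM or less, and the threonine and leucine pairs are the closest.

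The files also give each gene an abundance-weighted transcript length, which moves when the mix of its isoforms moves. This length did not overlap between groups and differed by at least 5% for 2 of the 36 synthetases, 5.56% of them, as for 4.36% of all tested genes. For Fars2, the phenylalanine enzyme of mitochondria, it was 1496, 1611 and 1703 bases in itaconate replicates 1, 2 and 3, against 1428, 1438 and 1328 bases in control. The CPM of Fars2 were higher in all itaconate libraries, at 17.6, 15.7 and 17.2 with itaconate, against 14.4, 13.5 and 15.3 in control. Its TPM overlapped, at 17.3, 13.3 and 13.9 with itaconate, against 15.6, 14.2 and 16.9 in control. With length as an offset in the fit its log2 fold change was -0.015 in place of 0.22. For Nars2, the asparagine enzyme, the length was 2868 bases with itaconate and 3067 bases in control on average. Fars2, named after its values were seen, overlaps several annotated genes, and the strand setting of the counting is not given in the sources used here.

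Overlap with other genes bears on further members, since 19 of the 36 overlap an annotated gene in GENCODE M21. Mars overlaps Ddit3, which encodes the stress factor CHOP, on the other strand. Mars had 262.0, 266.6 and 271.1 CPM with itaconate, against 259.6, 245.8 and 246.1 CPM in control, without overlap between the groups (0.09 ± 0.044, edgeR adjusted p 0.217). Ddit3 was lower, at 9.36 ± 0.736 CPM with itaconate and 13.1 ± 1.87 CPM in control (SD, n = 3 each; edgeR adjusted p 0.0221). Hars and Hars2, the histidine enzymes, overlap each other on opposite strands, and both were near 0 (-0.0032 ± 0.051 and 0.0057 ± 0.084). Fractional expected counts, which can arise where reads are divided between genes, occurred in 6 members, among them Aars, Farsb and Vars2, and in none of Gars, Sars and Yars2.

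Promoter sequence was available from RefSeq (GRCm38.p6) for 27 of the 36 genes, as 300 bases from 250 before to 50 after the annotated start. These windows were searched on both strands for TGATGNAA, the letters of the composite element that ATF4 binds together with C/EBP proteins. It was found for 5 of 13 cytosolic genes (Aars, Gars, Iars, Tars and Yars) and for 0 of 14 mitochondrial genes. Of all 32851 windows 3.97% held it, a share per window and not per gene, since some genes, Aars2 among them, have more than 1 window. The windows of Sars and Yars2 held no match. A match is a description of the letters and not a binding site. Gars, called higher, Yars, just short of the threshold, and Aars, with 2 matches and a log2 fold change of -0.0038, are shown 5′ to 3′ in lower case with the matches in capitals, on the plus strand at chr6:55037751-55038050, chr4:129189653-129189952 and chr8:111033592-111033891.
Gars: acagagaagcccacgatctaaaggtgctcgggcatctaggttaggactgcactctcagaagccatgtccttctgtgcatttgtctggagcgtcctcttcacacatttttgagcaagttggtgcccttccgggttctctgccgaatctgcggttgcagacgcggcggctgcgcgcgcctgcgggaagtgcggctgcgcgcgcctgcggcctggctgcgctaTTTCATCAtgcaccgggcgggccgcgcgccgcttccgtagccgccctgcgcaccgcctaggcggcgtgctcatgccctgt
Yars: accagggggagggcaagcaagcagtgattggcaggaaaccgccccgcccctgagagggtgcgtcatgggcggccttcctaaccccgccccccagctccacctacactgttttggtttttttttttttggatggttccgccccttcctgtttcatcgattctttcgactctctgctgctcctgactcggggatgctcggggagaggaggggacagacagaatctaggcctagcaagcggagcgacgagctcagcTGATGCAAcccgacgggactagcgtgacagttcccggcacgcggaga
Aars: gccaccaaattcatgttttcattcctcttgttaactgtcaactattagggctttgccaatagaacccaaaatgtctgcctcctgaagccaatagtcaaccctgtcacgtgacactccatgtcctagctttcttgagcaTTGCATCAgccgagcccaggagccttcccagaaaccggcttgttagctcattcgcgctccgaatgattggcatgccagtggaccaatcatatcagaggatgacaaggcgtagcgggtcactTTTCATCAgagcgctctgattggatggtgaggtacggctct
Counted from the annotated start as 0, the match began at -30 in Gars, at 3 in Yars, and at -112 and 9 in Aars. Iars and Tars, the isoleucine and threonine enzymes, had their matches at 7 and -15 and log2 fold changes of 0.021 and 0.041. The 5 genes that share the element therefore ran from -0.0038 to 0.20 in log2 fold change, and only Gars of them was called.

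Partner genes of tRNA charging were also mostly flat. Among 12350 tested genes, 12.0% were called by edgeR and 3271 had an unadjusted edgeR p under 0.05. Of 12 genes that modify, amidate or process mitochondrial tRNA, 0 were called by edgeR or DESeq2 and 0 had an unadjusted edgeR p under 0.05, with a median log2 fold change of 0.040. They include Gatb, Gatc and Qrsl1, the amidotransferase subunits that make glutaminyl-tRNA in mitochondria, at -0.17 ± 0.099, -0.068 ± 0.10 and 0.12 ± 0.085. Of 16 genes of cytosolic tRNA maturation, editing and handling, 2 rose and 0 fell, a share of 12.5% beside 12.0% of all tested genes, with a median of 0.067. Aarsd1, which hydrolyses mischarged alanine tRNA, had 87.5, 88.0 and 92.5 CPM in itaconate replicates 1, 2 and 3, against 70.1, 75.5 and 76.2 CPM in control (0.27 ± 0.056, edgeR adjusted p 0.00579). Every itaconate library was above every control library, and the call held without any 1 library but not with limma on log2(TPM + 1) (adjusted p 0.138). Aarsd1 had fractional expected counts in all 6 libraries and overlaps the annotated gene Gm27029 on the same strand. Tsen54, a subunit of the endonuclease that cuts introns from tRNA, averaged 38.7 ± 1.63 CPM with itaconate and 31.8 ± 2.62 CPM in control (SD, n = 3 each; edgeR adjusted p 0.0259), which passed without control replicate 3 but not when another single library was dropped (adjusted p 0.0536 to 0.135).

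Tarsl2, a further cytosolic threonine enzyme, did not pass (0.065 ± 0.097).

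The sensing arm and the supply arm of amino acid control differed in how many genes were called. Of 10 genes that sense uncharged tRNA or carry its signal, among them Eif2ak4 at -0.072 ± 0.085 and its activator Gcn1l1 at 0.020 ± 0.049, 0 were called by edgeR or DESeq2 and 0 had an unadjusted edgeR p under 0.05. Among 12350 tested genes, 12.0% were called by edgeR and 3271 had an unadjusted edgeR p under 0.05. Of 28 amino acid supply and stress genes known as ATF4 targets, 11 rose, 3 fell and 14 did not pass, with a median log2 fold change of 0.24. The higher calls numbered 4 with limma on log2(TPM + 1), 8 with effective length as an offset and 17 without the filter on low counts. Slc7a3, a transporter of basic amino acids, averaged 30.0 ± 2.65 CPM with itaconate and 19.3 ± 0.857 CPM in control (0.64 ± 0.085, edgeR adjusted p 0.000321). Pycr1, a proline synthesis enzyme, averaged 14.9 ± 1.85 CPM with itaconate and 8.84 ± 0.641 CPM in control (0.75 ± 0.12, edgeR adjusted p 0.000999), and Gpt2 (0.54 ± 0.057) and Asns (0.73 ± 0.075), which make alanine and asparagine, also rose (SD, n = 3 each). The 3 lower genes were Slc7a1, Atf3 and Ddit3. Slc7a1 averaged 313.3 ± 7.76 CPM with itaconate and 353.5 ± 15.8 CPM in control (SD, n = 3 each). Its log2 fold change was -0.17 ± 0.047 (SE; edgeR adjusted p 0.0279). Atf3 was at -0.486 ± 0.115 (edgeR adjusted p 0.0247) and Ddit3 at -0.485 ± 0.126 (edgeR adjusted p 0.0221). The count of 3 lower genes was 0 without control replicate 2 or itaconate replicate 3, and 1 without control replicate 3. That 14 of these 28 genes were called, and 3 of the 36 synthetases, is a count beside a background of 12.0%, and the difference between the lists was not tested.

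**Figure D4:**
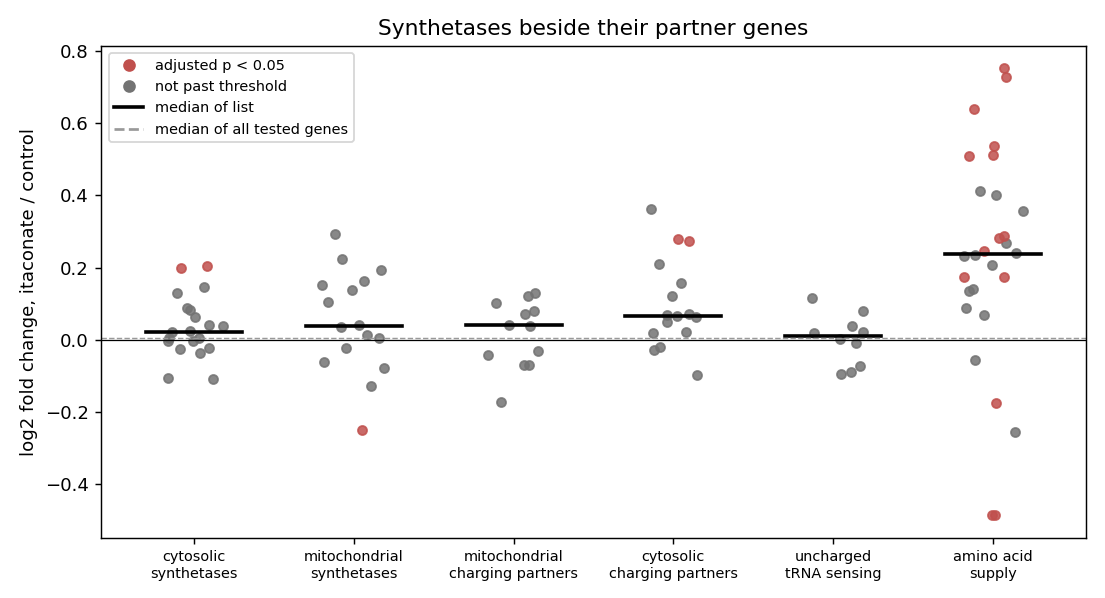
Log2 fold change of itaconate over control (y axis) for each gene of the synthetase classes and of their partner lists, with the list's median as a black bar and the median of all tested genes as a dashed line; red points passed an adjusted p of 0.05. Synthetases, charging partners and sensing genes centre near 0, with list medians from 0.012 to 0.067, and the supply genes have a median of 0.24.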

How the data were processed

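RNA was measured in 6 libraries, 3 itaconate and 3 control. Per the file headers, the authors deposited gene tables with RSEM's columns of expected counts, TPM, length and effective length. Bowtie 0.12.2 and the builds mm8 and mm10 are named per the submitters' processing notes. Their roles, the annotation release and the strand setting are not stated in the labels or headers. The deposited expected counts, of which 5.99% to 6.93% per library were not whole, were rounded to whole numbers. The authors' TPM values were used as deposited for levels and in limma 3.58.1 as an alternative.

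Genes were filtered with edgeR 4.0.16 in R 4.3.3 (minimum count 10, minimum total 15), which left 12350, scaled with TMM, and compared by edgeR's quasi-likelihood test, calling a Benjamini-Hochberg adjusted p under 0.05. Libraries summed to 18280217 to 31643408 counts. The procedure was tested on simulated counts that gave every gene the same dispersion (0.0052) and set no library apart. That run therefore did not test it under the gene-by-gene spread of the real libraries. Positions came from GENCODE M21, which held 99.83% of gene IDs. Alternatives were DESeq2 1.42.0, other scaling, no filter, a length offset, a replicate block, limma and leaving out each library. The members, lists and tests were chosen with earlier results of these data known. Values per library were given by rule for called members, the 3 with the highest mean TPM, the 2 uncalled members of each class with the smallest p, both enzymes of an amino acid with 1 called, Wars, Gars and Kars, and for up to 4 called genes of each partner list. Lars2, Fars2, Nars2, Wars2, Aimp2, Mars with Ddit3, Mars2, Slc7a1, Atf3 and others described by extremes were chosen after their values were seen.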

Additional observations from a re-analysis of the deposited data

How the results depend on the processing

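The counts of called genes depended on the fit, and the cause was not tested. Of all genes, 1487 were called, against 567 with effective length as an offset, 340 with limma on log2(TPM + 1) and 356 with limma on log2(TPM + 0.1), and 726 to 1400 without 1 library. Of the calls, 55.5% were higher in itaconate by edgeR, against 39.1% and 39.6% by limma. Cytosolic synthetases called higher numbered 2, against 1 with the length offset, 0 and 0 with limma, and 1 to 2 without 1 library. Mitochondrial synthetases called higher numbered 0, and 0 to 1 without 1 library. Amino acid supply genes called higher numbered 11, against 8 with the length offset, 4 and 4 with limma, and 17 without the filter. Mitochondrial synthetases called lower numbered 1, against 0 with the length offset, 0 and 0 with limma, and 0 to 1 without 1 library. The median log2 fold change of the cytosolic set, 0.022, was -0.0464 and -0.0468 with limma, where the median of all genes was -0.0496 and -0.0574, and 0.0506 with the length trend removed. That of the mitochondrial set, 0.040, was -0.0229 and -0.0267 in the same limma fits and -0.0278 to 0.0786 without 1 library. The log2 ratio of summed cytosolic over mitochondrial TPM differed by 0.0323 between itaconate and control, against -0.00667 in CPM and 0.0133 to 0.0528 without 1 library. Deviations of same-numbered libraries from their group means correlated at 0.113, 0.0305 and 0.0034. The labels do not say whether the numbers pair libraries, and these correlations cannot decide it. With a replicate block 2419 genes were called, with 4 cytosolic and 2 mitochondrial synthetases higher, and 19 of the amino acid supply genes, against 11 without the block. Counts of 164 or more per library limit the precision of the lowest mitochondrial genes.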
